A study of Caenorhabditis elegans with 2 samples.

Results

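The genes tlp-1 and psa-3 of Caenorhabditis elegans act in the division of the T cell in the tail, and their surroundings were examined for binding of UNC-62, a homeodomain transcription factor of the Meis/Prep family. They are 2 of the 19973 protein-coding genes on the nuclear chromosomes, chosen by the peaks near them, many and strong at tlp-1 and weak at psa-3, so peak counts, signals and ranks there are a description and carry no test. Each gene was taken with 20 kb on each side. The data are lists of peaks from chromatin immunoprecipitation with sequencing, a method that maps where a protein sits on DNA. The single group was mixed-stage embryos of both sexes, age unknown, of strain OP600, whose genotype is unc119(ed3) with the insertion wgIs600, and 2 biological replicates came from separate biosamples of that strain. The insertion encodes UNC-62 with TY1, EGFP and FLAG tags, alongside unc119, so binding of the tagged protein was mapped. No wild-type or untagged library is in the group. Whole embryos were used, so neither the cells in which a site was bound nor their share of the embryo was resolved. The shorter list, kept by the authors after an irreproducible discovery rate (IDR) comparison of the replicates, holds 2754 peaks on build ce11, and a longer list from both replicates together, called pooled here, holds 17083. The IDR list equals the 2754 strongest peaks of the pooled list. The depth of sequencing is unknown, so a place without a peak cannot be called unbound.

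The T cell is a blast cell of the tail epidermis that is born in the embryo and divides unequally in the larva, giving epidermal cells from the anterior daughter and mainly neural cells from the posterior one. A Wnt signal, LIN-44, acting through the Frizzled receptor LIN-17 and the TCF factor POP-1 with its coactivator SYS-1, sets that asymmetry. The gene tlp-1 encodes a zinc finger transcription factor that the daughters of the T cell need for their fates, and it also acts in shaping the male tail tip. The gene psa-3 encodes a Meis-related protein, and published genetics places it under the posterior Hox protein NOB-1, the PBC-class cofactor CEH-20 and POP-1. UNC-62, a Meis/Prep protein itself, partners with PBC proteins such as CEH-20.

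The peaks near the 2 genes differed widely in number and strength. Within 20 kb of tlp-1 lay 13 summits of IDR peaks, a summit being the point of highest signal in a peak, and their signals ran from 112 to 618. No IDR summit lay within 20 kb of psa-3. Among all protein-coding genes, 0.025% (5 genes) had at least as many IDR summits within 20 kb as tlp-1, while 45% (8994 genes) had none, as psa-3 did, and 55% had at least 1. The strongest peak of the psa-3 region ranked 4755 in the pooled list, with a signal of 39.4, below the 59.9 of the weakest IDR peak. Signals are the values that the authors' caller gave each peak, and they were compared within a list only.

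**Figure D1:**
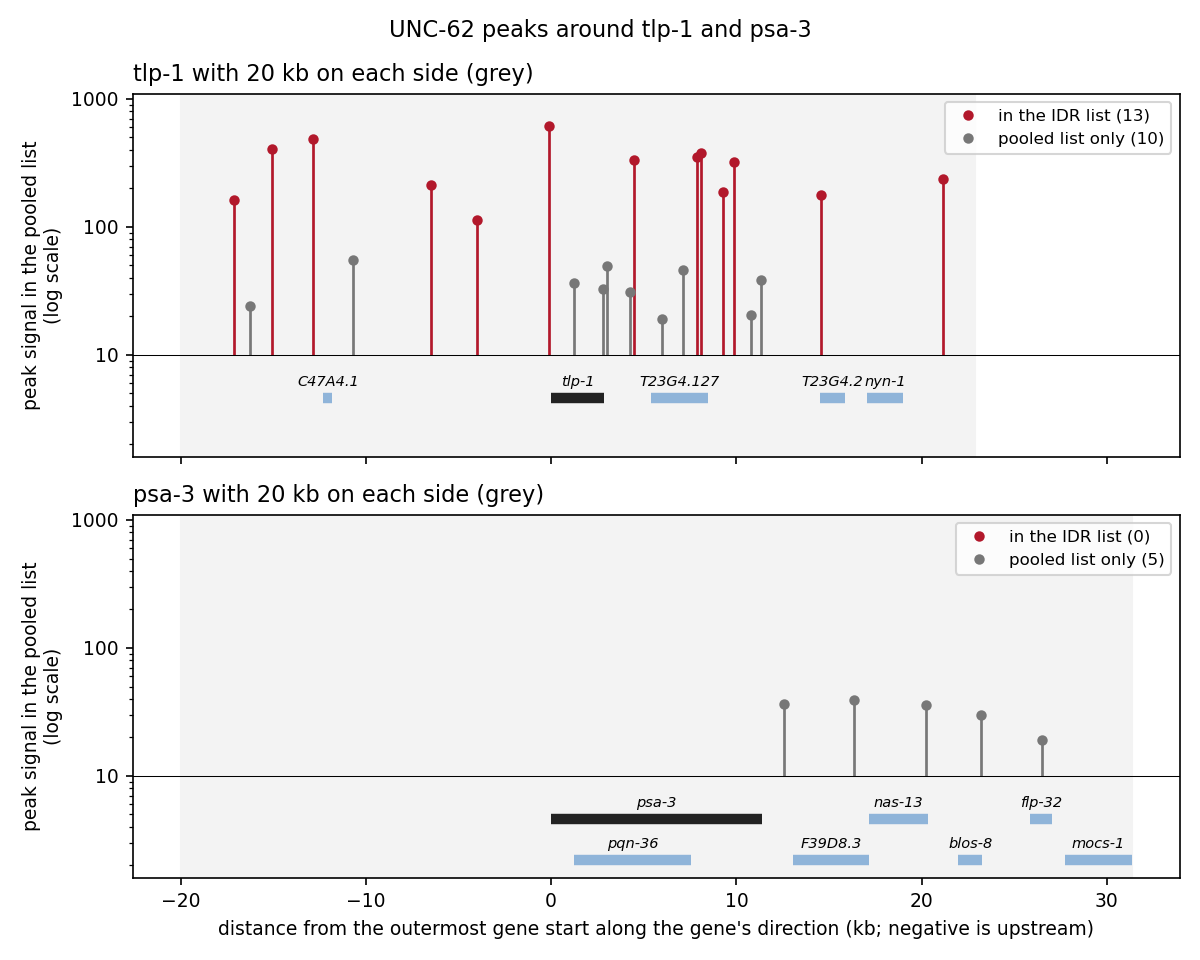
Peak signal in the pooled list (log scale) against distance from the outermost start of each gene, in kb along the gene's own direction, with annotated protein-coding genes as bars below (the gene itself in black). Red points are peaks in the IDR list, 13 near tlp-1 and 0 near psa-3, and grey points are the weaker pooled peaks, 10 and 5.

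The strongest of these sites lay just before tlp-1 (WBGene00006580, chromosome IV 13701208 to 13704082, minus strand, 1 annotated transcript). The 300 bases before its start are shown because the peak ranked 8 in the IDR list has its summit there, at base 156 of the run, 145 bp upstream of the start. Sequences are from RefSeq's copy of the same assembly (WBcel235), 5′ to 3′, and capitals mark the motifs searched on both strands: TGACAG, the core of a Meis site (CTGTCA on the other strand), 3 sites of PBC-Hox pairs (TGATTGAT, TGATTTAT and TGATTAAT, which share their first letters), the TCF core CTTTGA, and GAGAGA. This run is on the strand of the gene, chrIV:13704083-13704382:
tlp-1 upstream: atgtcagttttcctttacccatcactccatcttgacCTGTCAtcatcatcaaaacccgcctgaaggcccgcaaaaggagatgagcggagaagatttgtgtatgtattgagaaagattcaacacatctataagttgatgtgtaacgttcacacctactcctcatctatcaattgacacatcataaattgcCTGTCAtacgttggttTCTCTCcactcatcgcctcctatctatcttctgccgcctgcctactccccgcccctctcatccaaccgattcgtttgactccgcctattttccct
The letters TGACAG occurred 2 times in the run and GAGAGA 1 time. Over the 300 bases before the outermost start of all 19973 protein-coding genes, 9.32% held TGACAG at least once and 0.586% at least 2 times, while 21.6% held GAGAGA. The 300 bases before psa-3 held TGACAG 1 time and none of the other motifs.

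Further windows of 101 bases centred on a summit, on the plus strand, are shown to compare strong sites that carry different letters. The first 2 hold TGACAG, the next 2 hold PBC-Hox letters, and the fifth, ranked 26, holds none of the motifs. They are chrIV:13716911-13717011, chrIV:13694136-13694236, chrIV:13694775-13694875, chrIV:13721143-13721243 and chrIV:13719112-13719212:
rank 15: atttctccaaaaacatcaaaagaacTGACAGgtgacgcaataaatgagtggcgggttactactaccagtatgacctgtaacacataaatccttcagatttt
rank 61: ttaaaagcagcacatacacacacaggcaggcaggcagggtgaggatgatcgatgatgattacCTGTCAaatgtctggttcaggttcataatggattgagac
rank 311: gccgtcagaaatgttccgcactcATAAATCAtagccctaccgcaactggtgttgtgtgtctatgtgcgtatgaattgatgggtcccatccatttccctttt
rank 439: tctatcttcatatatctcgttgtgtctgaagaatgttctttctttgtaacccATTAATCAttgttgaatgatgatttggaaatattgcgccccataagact
rank 26: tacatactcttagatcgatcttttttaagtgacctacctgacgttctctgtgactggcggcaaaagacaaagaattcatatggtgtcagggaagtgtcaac
Beside the summit ranked 42, the letters occurred 3 times within 28 bases, at chrIV:13696230-13696257, in an exon part that carries no coding sequence in the gene T23G4.127:
rank 42: CTGTCActagCTGTCAcattatTGACAG

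The peak at the tlp-1 start was among the strongest in both replicates. It covered IV 13704051 to 13704448, with a signal of 618 in the IDR list, 415 in replicate 1 and 202 in replicate 2. Its rank was 6 of 21749 peaks in replicate 1 and 12 of 30000 in replicate 2, with the summit at the same base in both. The summit was intergenic, and no IDR summit fell inside the tlp-1 transcript. The weaker pooled peaks inside the gene ranked 5372 (signal 36.1, in coding sequence 1225 bp downstream of the start) and 6193 (signal 32.4, in the 3′ untranslated region).

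Upstream of tlp-1 lay 5 more IDR summits, the strongest of them far from the gene. The peak ranked 15, at IV 13716818 to 13717093, had its summit 12879 bp upstream of tlp-1, with signals of 486 in the IDR list, 273 in replicate 1 (rank 22) and 210 in replicate 2 (rank 9). It was the strongest peak of the region in replicate 2, whereas in replicate 1 the peak at the tlp-1 start was. The peak ranked 26, with its summit 15080 bp upstream, had signals of 405, 262 (rank 26) and 147 (rank 31) in the same order. The summits 6478, 17111 and 3991 bp upstream ranked 213, 439 and 961 in the IDR list. The last was the weakest of the 13, with ranks of 978 and 1052 in the replicates. All 5 were intergenic, and 4 of them lay nearer to the start of C47A4.1, the next protein-coding gene upstream, than to that of tlp-1.

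Downstream of tlp-1 lay 7 IDR summits, 5 of them between 4 and 10 kb from the start. The peaks ranked 30 and 42 shared 1 interval, IV 13695626 to 13696398, so the 13 summits came from 12 intervals. Their signals were 378 and 351 in the IDR list and 301 (rank 16) and 210 (rank 49) in replicate 1. Replicate 2 had 1 peak there, with a signal of 154 (rank 26), whose summit lay 2 bp from that of the peak ranked 42 and 227 bp from that of the peak ranked 30. The interval lies in T23G4.127, the first summit in a 3′ untranslated region and the second in coding sequence.

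The next of this side, ranked 52, was intergenic, 4468 bp downstream of the tlp-1 start and 911 bp upstream of T23G4.127, with signals of 331, 214 (rank 45) and 115 (rank 73) in the IDR list and the 2 replicates. The intergenic peaks ranked 61 and 311 lay 9896 and 9257 bp downstream, with signals of 320 and 186. Farther out, the peak ranked 364 lay 22 bp into T23G4.2, in exon sequence before its coding part. The peak ranked 149 was intergenic, 21144 bp from the tlp-1 start. Only 2 of the 13 summits had the start of tlp-1 as their nearest protein-coding start, against 5 for T23G4.127, 4 for C47A4.1 and 1 each for T23G4.2 and srlf-26. A peak list does not say which gene a site acts on, so the 13 summits are near tlp-1 and were not assigned to it.

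The sites near tlp-1 were strong as well as many. Of the 100 strongest IDR peaks, 7 had their summits within 20 kb of tlp-1, and of the 500 strongest, 12 did. No other protein-coding gene had as many of either. Neighbouring genes count many of the same summits, however. Within 20 kb, T23G4.127 had 11 of the 13, and T23G4.2 and C47A4.1 had 9 each. All 13 signals lay above the median of the IDR list, 94.7. Together the 13 made up 0.472% of the IDR peaks and 1.24% of the list's summed signal, and 3.28% of the 396 IDR peaks on chromosome IV. Their summed signal, 3973, was exceeded at 1 gene, and their number at 2. Per 10 kb there were 3.03 IDR summits around tlp-1 against 0.272 over the nuclear genome.

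**Figure D2:**
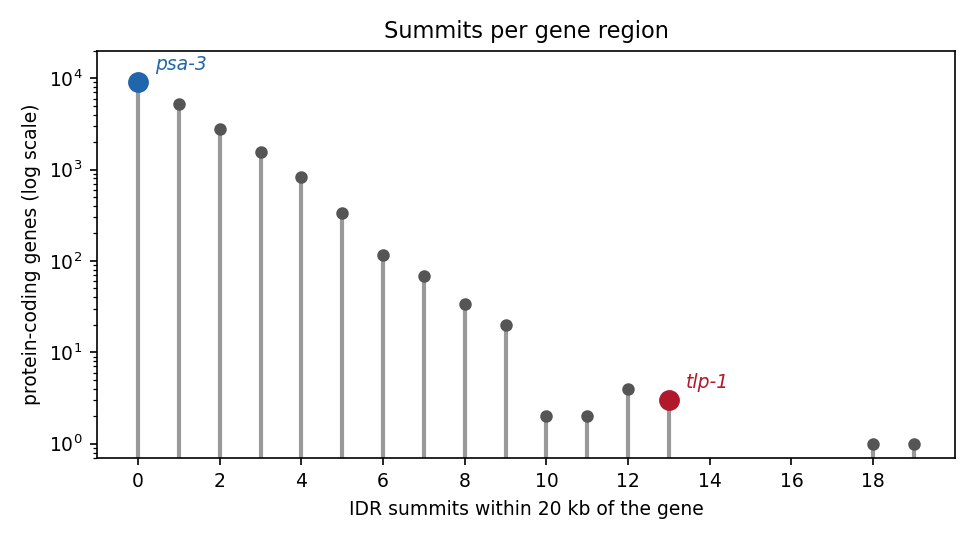
Number of protein-coding genes (log scale) with each number of IDR summits within 20 kb. The red point holds tlp-1 with 13 summits and the blue point psa-3 with 0, which 8994 genes share.

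The tlp-1 cluster was also set apart along the chromosome. Its 13 summits spanned 38.3 kb, with gaps of 225 to 6596 bp between neighbours and a median gap of 2939 bp. The nearest IDR summits beyond it lay 142 kb away on the downstream side, near rsd-2 (signal 74.9), and 105 kb away on the upstream side, near rga-5 (signal 210). On chromosome IV as a whole the median gap between neighbouring IDR summits was 20172 bp, and 25 and 39 of its 395 gaps were at least as long as those 2. No IDR summit therefore lay just outside the 20 kb limit, and the summit nearest to it on the inside was the one ranked 149.

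All 13 IDR peaks of the cluster were overlapped by at least 1 bp in both full replicate lists, as were 2706 of the 2732 nuclear IDR peaks (99.0%), so that overlap is the usual one for the list. With at least 0.5 of both peaks overlapping, 6 of the 13 were held by both replicates, against 90.6% of all nuclear IDR peaks. With summits at most 50 bp apart it was 12 of the 13, against 76.0%. The replicate peaks matched to the 13 were all among the 2754 strongest of their list. In replicate 1 the ranks of the 13 ran from 6 through a median of 59 to 978, and in replicate 2 from 9 through 74 to 1052. Across the 13, the signals of the replicates had a Spearman's rho of 0.941, given as a description, since the sites share their libraries and 2 of them share a replicate 2 peak. The summits of the 2 lists lay at a median of 1 bp (replicate 1) and 4 bp (replicate 2) from those of the IDR list.

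**Figure D3:**
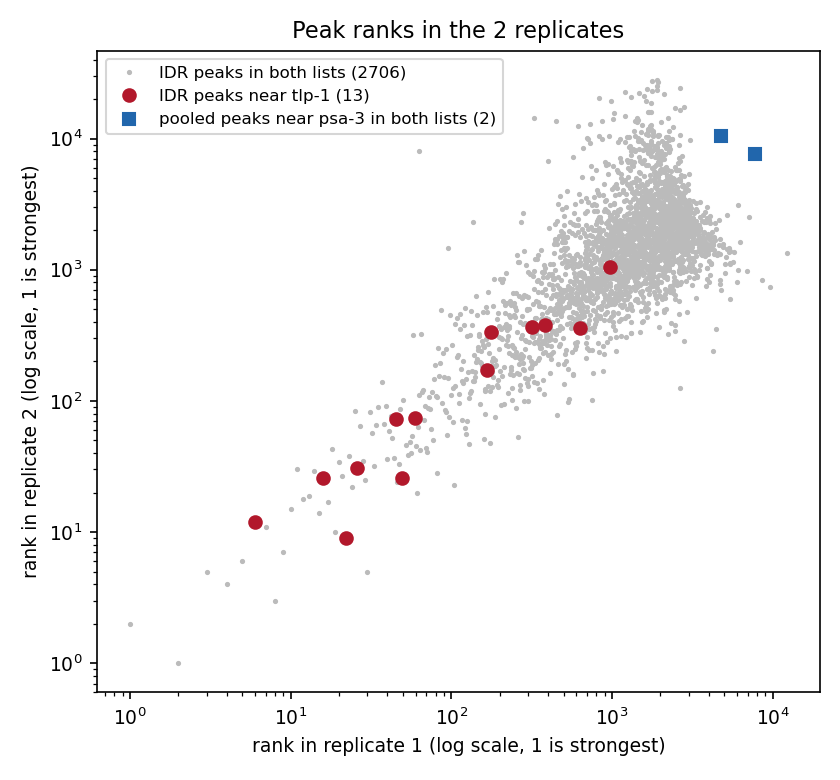
Rank of each peak in replicate 1 against its rank in replicate 2, both on log scales with rank 1 the strongest. Grey points are the 2706 nuclear IDR peaks found in both lists, red points the 13 near tlp-1, which lie between ranks 6 and 1052, and blue squares the 2 pooled peaks near psa-3 that both lists hold.

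Most peaks near tlp-1 did not have the list's usual width. A width of 376 bp was given to 86.9% of IDR peaks but to 2 of the 13, whose widths ran from 105 to 773 bp. Of the 500 strongest IDR peaks, 35.2% had that width. Of the 13 summits, 10 (76.9%) were intergenic, against 65.8% of all nuclear IDR summits, in a region that is 77.3% intergenic.

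Weaker peaks filled some of the spaces in the tlp-1 region. The pooled list held 10 more there, with signals of 19.1 to 55.3 and ranks of 3082 to 16665. Both replicates held 7 of them, replicate 1 alone held 1 and replicate 2 alone 2. Some of the 7 shared a replicate peak: those ranked 3542 and 6193 had the same match in each replicate, and the one ranked 6645 had the replicate 2 peak already matched to the IDR peak ranked 52. The 7 thus stood for 6 separate peaks in replicate 1, and for 5 in replicate 2 beyond those matched to IDR peaks. The strongest, ranked 3082, lay 10698 bp upstream of tlp-1, with a signal of 30.8 in replicate 1 and 25.9 in replicate 2. It is the one closest to the end of the IDR list, whose last rank is 2754.

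Around psa-3 (WBGene00009560, chromosome X 15407931 to 15419298, plus strand, 4 annotated transcripts) the lists held weak peaks only. The gene is 11.4 kb long, mostly introns, and 1 of its introns holds pqn-36, a gene for a glutamine- and asparagine-rich protein, on the other strand. All 5 pooled peaks of the region lay downstream of the gene, and none lay in it or before it. They had signals of 19.0 to 39.4 and ranks of 4755 to 16879. Of all protein-coding genes, 66.3% had at least 5 pooled peaks within 20 kb, and the median was 6. Per 10 kb the psa-3 region held 0.973 pooled summits, against 1.70 over the nuclear genome.

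The pooled peak nearest to psa-3 had its summit in intergenic sequence 12557 bp downstream of the outermost start and 2938 bp downstream of the start of the shortest transcript. Its signal was 36.3 in the pooled list (rank 5318), 18.4 in replicate 1 (rank 7781) and 15.2 in replicate 2 (rank 7616), and it lay 483 bp upstream of F39D8.3. The replicate 1 summit lay 220 bp away and that of replicate 2 at the same base. It is shown because it is the pooled peak nearest to psa-3 and both replicates held it. The window, chrX:15420438-15420538, holds none of the motifs:
rank 5318: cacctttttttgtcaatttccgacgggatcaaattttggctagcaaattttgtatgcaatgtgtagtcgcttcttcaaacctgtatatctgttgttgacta
The strongest pooled peak, ranked 4755, lay in coding sequence of F39D8.3 and was in replicate 1 (signal 37.8, rank 2885) but not in replicate 2. The next, ranked 5463, lay 67 bp into nas-13, an astacin-family protease gene, and was in both replicates (signals of 26.0 and 13.3). It was the one of the 5 with TGACAG within 50 bp of its summit. The other two lay 71 bp into blos-8 (rank 7105, replicate 2 only, signal 21.7) and in an intron of flp-32, a neuropeptide gene (rank 16879, replicate 1 only, signal 17.0).

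Inside psa-3 itself, replicate 1 alone held peaks. There were 3, in ranks 14978, 16118 and 21488 of 21749, with signals of 12.8, 12.3 and 10.5, and the one ranked 16118 lay in coding sequence of pqn-36. Another in that list lay 199 bp upstream of the outermost start (rank 16982, signal 12.0). None of these 4 was overlapped by a peak of replicate 2 or of the pooled list, and replicate 2 held no peak in or before the gene. In all, the region held 10 peaks in replicate 1 and 7 in replicate 2, all ranked beyond 2754, and 2 of each overlapped one of the other replicate. Of all nuclear peaks ranked beyond 2754, 44.8% in replicate 1 and 32.1% in replicate 2 did so. The overlapping peak of the other replicate could have any rank. The replicate 1 peaks ranked 4974 and 4707 near tlp-1, for example, overlapped strong replicate 2 peaks, ranked 379 and 73. Counted in this way, 9 of 11 peaks ranked beyond 2754 near tlp-1 in replicate 1 and 4 of 13 in replicate 2 overlapped one. These numbers of peaks are small, and the shares were not tested.

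The stretch without IDR summits around psa-3 was long for the chromosome. It reached from X 15365407, where a weak IDR peak (signal 60.2, rank 2730) lies 42.5 kb upstream of psa-3, to X 15555550, where another (signal 72.1, rank 2095) lies 136 kb beyond its end. Of the 643 gaps between neighbouring IDR summits on X, 2 were at least as long as this one of 190 kb, itself included, and the median was 15007 bp. On X, 27.8% of the 2731 protein-coding genes had no IDR summit within 20 kb, against the 45% over all chromosomes given above.

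The letters of Meis sites were about as frequent in both regions. TGACAG occurred 25 times in the 42.9 kb around tlp-1 (5.83 per 10 kb) and 27 times in the 51.4 kb around psa-3 (5.26 per 10 kb), against 3.67 per 10 kb over the nuclear genome. Over the nuclear genome TGATTGAT occurred 0.723, TGATTTAT 0.955 and CTTTGA 8.57 times per 10 kb. Inside psa-3, which is 11.4 kb long, there were 5 TGACAG, 2 TGATTGAT, 3 TGATTTAT, 2 TGATTAAT and 7 CTTTGA. The psa-3 region had no IDR summit, so none of these could lie within 50 bp of one. TGATTAAT was found 2.57 times per 10 kb around tlp-1 and 0.973 around psa-3, against 0.625 over the genome. A match of letters is not a bound site, and a window without one says nothing of whether a factor was there.

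Under the summits themselves, TGACAG was present within 50 bp of 4 of the 13 near tlp-1 (30.8%), those ranked 8, 15, 42 and 61, as in the sequences printed above. It was present at 12.8% of all nuclear IDR summits, 18.6% of the 500 strongest and 3.4% of windows 500 bp to their sides. TGATTAAT was at 2 of the 13 (ranks 149 and 439), against 0.805% of all and 1.6% of the 500 strongest. TGATTTAT was at 1 (rank 311), against 2.67% and 3.8%. GAGAGA was at 1 of 13 (7.69%), against 31.9% of all IDR summits and 32.6% of the 500 strongest. Its letters occurred 5.13 times per 10 kb around tlp-1 and 5.06 around psa-3, against 7.52 over the genome. TGATTGAT and CTTTGA were at none of the 13, against 3.4% and 5.2% of all IDR summits. Counts of 13 sites are small, and the sites were chosen for their signal, so these shares are a description.

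The genes of the T-cell pathway differed widely in the peaks near them. The list held 17 genes that act in or on the division or on psa-3, and 5 of them (29.4%) had an IDR summit from 1000 bp upstream to 500 bp downstream of the outermost start, where 6.18% of all protein-coding genes had one. Without tlp-1 and psa-3 it was 4 of 15. With the window cut to 500 bp before and 200 bp past the start, 2 of the 17 had one (tlp-1 and sys-1), against 4.43% of all genes. With any annotated transcript start in place of the outermost one, 7 of the 17 had one, and the share of all genes is not given. Of the genes without a summit at the outermost start, only egl-27 and lit-1 had IDR summits in their bodies (5 and 3). The list was drawn up with some of these peaks known, so its share is no independent evidence. Within 20 kb, 11 of the 17 had at least 1 IDR summit, against 55% of all genes.

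Among the signalling genes, neither Wnt ligand gene of the list had an IDR summit within 20 kb. They were lin-44, whose product acts on the T cell, and egl-20. The receptor gene lin-17 had one 645 bp upstream of its start (signal 187, ranks 248 and 523 in the replicates) and 5 within 20 kb. The gene mig-14, for the Wntless protein that Wnt secretion needs, had 1 within 20 kb and none at its start. Of the intracellular genes, pry-1, an Axin, had a summit 507 bp upstream (signal 174, ranks 440 and 327), and apr-1, an APC relative, had none within 20 kb.

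The beta-catenin gene sys-1 had a weaker summit 325 bp upstream (signal 76.6), which ranked 1317 in replicate 1 but 7543 in replicate 2. The TCF gene pop-1, the beta-catenin gene wrm-1 and the Nemo-like kinase gene lit-1 had none at their outermost starts, and 2, 4 and 3 within 20 kb. All 3 near lit-1 lay in its body. Of the chromatin genes, egl-27, an MTA relative needed for T-cell polarity, had 19 within 20 kb and 5 in its body, more than tlp-1, though none at its outermost start and a lower strongest signal (357). The SWI/SNF subunit genes swsn-4 and swsn-1 had 2 and 0 within 20 kb.

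The regulators placed upstream of psa-3 differed too. The strongest peak of the IDR list lay 736 bp upstream of ceh-20 (signal 973, ranks 2 and 1), while nob-1 had no IDR summit within 20 kb. The order by number within 20 kb ran from egl-27 (19) and tlp-1 (13) through lin-17 and sys-1 (5 each) to the 6 genes with 0, psa-3 among them.

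**Figure D4:**
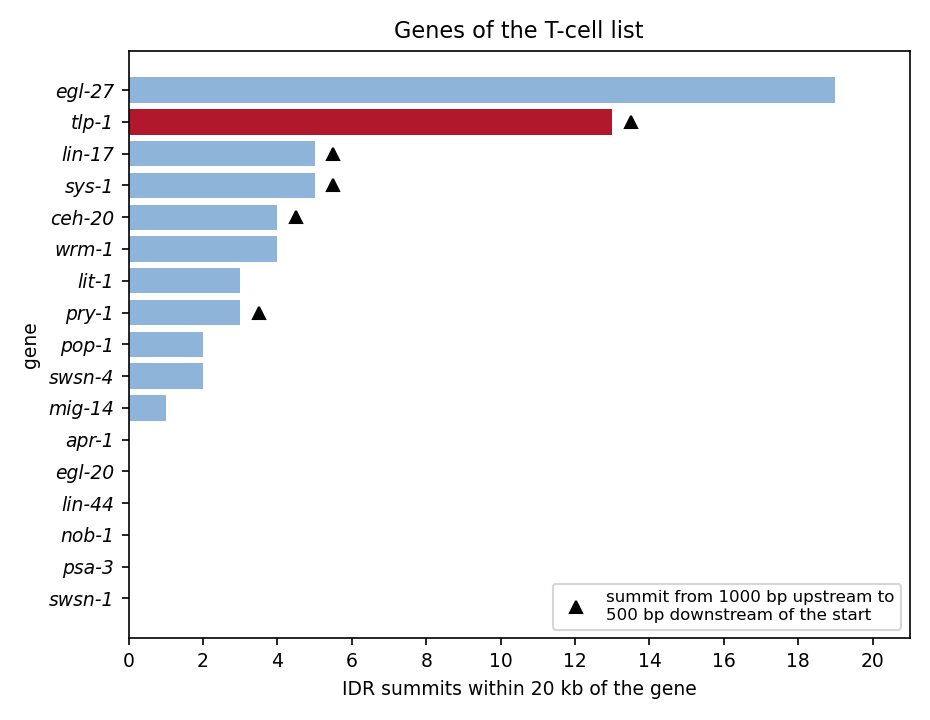
IDR summits within 20 kb of each of the 17 genes of the T-cell list, as bars, with a triangle where the start window (1000 bp before to 500 bp past the outermost start) held one. The bar of tlp-1 is red with 13 summits, egl-27 has 19, and 6 genes including psa-3 have 0.

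By likeness, 2 other genes had exactly 13 IDR summits within 20 kb, and both lay over 40 kb from tlp-1. Measured by the difference in log2 of the summed signal on the 1 IDR list made from 2 replicates, T28F12.1 on chromosome V was nearest (0.04, summed signal 3867) and the Hox gene lin-39 on chromosome III next (0.98, summed signal 2015). The region of T28F12.1 overlaps that of unc-62, which had 18 summits, so both count many of the same summits. The 5 genes with at least 13 summits fell into 4 separate loci, those of egl-27, lin-39, tlp-1, and unc-62 with T28F12.1. For psa-3 no order of likeness can be given, since 8993 other genes also had 0.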

How the data were processed

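Peak lists in narrowPeak format on build ce11 were used, per the deposited file descriptions: 1 per replicate, called on its own alignments against a control, 1 pooled over both, and 1 IDR list. The peak signal is the value that the authors' caller gave each peak, and the −log10 q was deposited with it. All 13 IDR peaks near tlp-1 share the list's highest −log10 q with 1160 others, so peaks were ranked by signal. Not given in the sources used here: aligner, peak caller, IDR threshold and depth. The lists on build ce10 were not used.

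Summits were placed 1-based on the Ensembl release 115 annotation of WBcel235 with Python 3.11.15, pandas 2.3.3 and pysam 0.24.0. A summit's class was taken in the order coding, 3′ untranslated, exon before or without coding sequence, intron, intergenic, over protein-coding genes. The gene start was the outermost one. Peaks were matched between lists by 1 bp of overlap, taking the nearest summit. The counting was checked on simulated data. Members, lists and motifs were chosen with earlier results of these data known. The genes named were tlp-1, psa-3, those nearest to their IDR summits, the T-cell list, and up to 3 alike genes. Genes around the weaker psa-3 peaks and beside the gaps, and the other genes with at least 13 summits, were named after their values were seen. No test was run: there is 1 group, and the genes were chosen on the readout.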

Additional observations from a re-analysis of the deposited data

How the results depend on the processing

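Around tlp-1, 8 IDR summits lay within 10 kb and 4 within 5 kb, and the whole pooled list gave 23 in place of 13. The strongest peaks of 1 replicate alone gave 13 to 15. Around psa-3 the whole pooled list gave 5, and the count was 0 with narrower flanks, the stronger 1377 IDR peaks, any base of a peak in place of its summit, and each replicate's strongest peaks. The best rank was 6 to 9 in single replicates for tlp-1. For psa-3 it was 2885 in replicate 1 and 3353 in replicate 2, against 4755 in the pooled list, and the lists differ in length. At both genes the best peak was a different one in each replicate. At psa-3 neither was overlapped by a peak of the other replicate. The narrower start window (500 bp upstream to 200 bp downstream) left 2 genes of the T-cell list in place of 5, single replicates 4 to 5. Requiring at least 0.5 of both peaks to overlap left 6 of the 13 peaks near tlp-1 in both replicates, where widths differ between the lists, and summits at most 50 bp apart left 12. The remaining settings kept each count within 1.5 times. No paired analysis was possible because there is 1 group. Depth is unknown, so weak or missing peaks near psa-3 have no limit that could be stated.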

Other observations

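The region around tlp-1 is rich in piRNA genes, which encode the small RNAs that guide Piwi proteins in the germline and which lie mostly on chromosome IV. The annotation places 180 of them within 20 kb of tlp-1 and 0 within 20 kb of psa-3. The 13 IDR summits near tlp-1 lay 6 to 548 bp from the nearest piRNA gene, the nearest being the one ranked 439. Distances from other places in the region, where piRNA genes are dense, are not given beside these. Whether this spacing bears on the peaks was not tested. The base composition differed between the regions, with a GC content of 32.0% around tlp-1 and 36.4% around psa-3. The windows of 101 bases at the 13 summits had a GC content of 33.7% to 49.5%.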
